A study of Homo sapiens with 6 samples.

Results

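The EGFR family joins the receptor tyrosine kinases EGFR, ERBB2, ERBB3 and ERBB4 with the growth factors that bind them, here AREG, EREG, HBEGF, TGFA, BTC and NRG1. These 10 genes, 4 receptors and 6 ligands, were chosen by name as the family's receptors and main ligands and looked up by symbol in a table of 62703 genes measured by RNA sequencing in PANC-1 cells, a human pancreatic ductal adenocarcinoma line. In 3 samples (DKK1-SE-/-) CRISPR/Cas9 had removed both copies of e1, a component enhancer of the super-enhancer DKK1-SE near the WNT antagonist gene DKK1, and 3 samples of wild-type PANC-1 (DKK1-SE+/+) served as the control. The comparison asks how RNA levels differ once e1 is gone. The study obtained a single homozygous line, so an effect of losing e1 and any other difference between that line and the wild-type cells cannot be told apart. The libraries held between 16475810 and 21822314 expected counts.

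Receptors of this family sit in the cell membrane, pair up when a ligand binds, and pass the signal through adaptor proteins to the RAS-RAF-MEK-ERK and PI3K-AKT cascades. AREG and TGFA bind EGFR, HBEGF, BTC and EREG bind EGFR and ERBB4, and NRG1 binds ERBB3 and ERBB4, while ERBB2 has no known soluble ligand and acts as a partner. Signalling through EGFR is a well-known driver of growth in pancreatic ductal cancer.

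DKK1, whose enhancer had been deleted, stood at 229, 246 and 199 TPM (a transcript level corrected for length and library depth) in wild-type replicates 1 to 3. In DKK1-SE-/- replicates 1 to 3 it stood at 66.8, 79.8 and 82.7 TPM. Every DKK1-SE-/- sample lay below every wild-type sample, with a log2 fold change of -1.45 ± 0.11 (SE) and an adjusted p of 6.16e-06 (edgeR quasi-likelihood test). DKK1-SE-/- replicate 3 was the closest of its group to the wild-type mean in 60.5% of the genes called, a count made after the values were seen, against 17.9% for replicate 1 and 21.6% for replicate 2.

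In the family, the 4 EGFR-binding ligands tested were called higher in DKK1-SE-/- cells, NRG1 was called lower, and EGFR itself, the most abundant member, was not called. Of the 10 members, 8 passed the low-count filter and ERBB4 and BTC did not. A gene was called at an adjusted p under 0.05 in the edgeR fit over all 15179 genes tested. By that rule 7 members were called, 5 higher (ERBB2, AREG, EREG, HBEGF and TGFA) and 2 lower (ERBB3 and NRG1), where 39.3% of all tested genes were called, 19.8% as higher and 19.5% as lower. A second rule, an unadjusted p under 0.05 together with a log2 fold change of 1.2 or more in size, took in 3 members, TGFA as higher and ERBB3 and NRG1 as lower, where it took in 8.66% of all tested genes, 4.96% as higher and 3.7% as lower. The study's methods word the limit of 1.2 as an absolute fold change and name no log scale. Read as a linear fold change, a reading added after the values were seen, the limit took in 7 of the 8 tested members and 47.6% of all tested genes. The median log2 fold change was 0.54 over the 8 tested members and 0.03 over all tested genes.

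**Figure D1:**
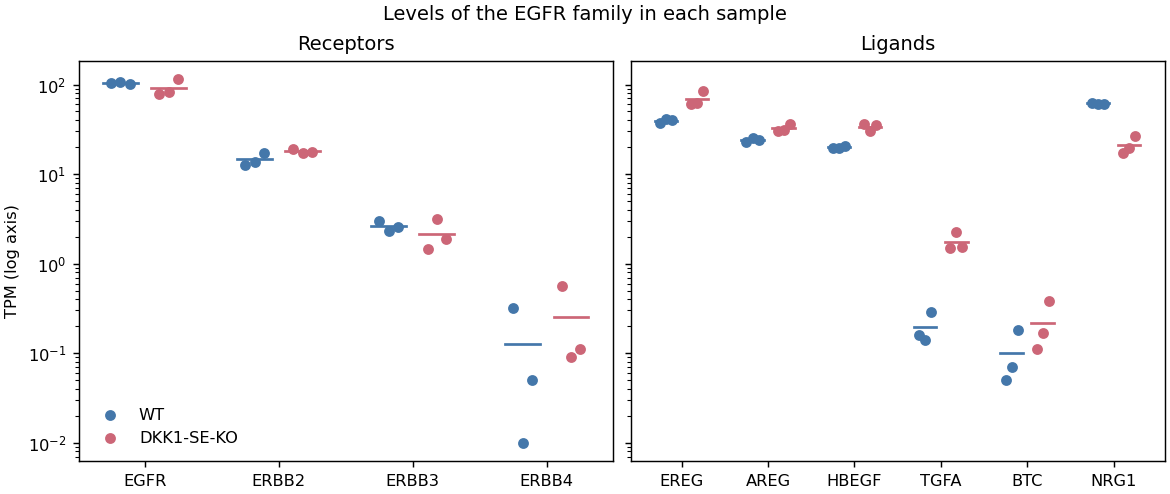
Level of each receptor and ligand in TPM on a log axis, with a point for each of the 3 wild-type (WT) and 3 DKK1-SE-/- (DKK1-SE-KO) samples and a line at each group mean. EREG, AREG, HBEGF and TGFA lie higher in every DKK1-SE-KO sample than in any WT sample and NRG1 lies lower, while the EGFR, ERBB2, ERBB3, ERBB4 and BTC points overlap.

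Among the receptors, EGFR (ENSG00000146648, chr7:55019017-55211628 on hg38, plus strand) stood at 104, 107 and 102 TPM in the wild-type samples and at 77.4, 83.2 and 114 TPM in DKK1-SE-/- replicates 1 to 3. DKK1-SE-/- replicates 1 and 2 were below the wild-type range and replicate 3 was above it, so the groups overlapped. The log2 fold change was -0.08 ± 0.11 (SE), which edgeR did not call (adjusted p = 0.607), nor did it with a correction for GC content (-0.17, adjusted p = 0.216). Without DKK1-SE-/- replicate 3 it became -0.22 and was called (edgeR adjusted p = 0.0426). A long noncoding RNA, EGFR-AS1, is annotated on the opposite strand and held 39.1 to 66.1 expected counts a sample, few beside the 10031 to 16191 of EGFR.

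ERBB2 (ENSG00000141736, chr17:39687914-39730426, plus strand), the partner that needs no ligand of its own, stood at 12.8, 13.7 and 17.3 TPM in the wild-type samples and at 19.2, 17.1 and 17.7 TPM in the DKK1-SE-/- samples. Wild-type replicate 3 lay within the DKK1-SE-/- range. The log2 fold change was 0.49 ± 0.13 (SE; edgeR adjusted p = 0.0119). This call is weak, since it was lost without wild-type replicate 1 (edgeR adjusted p = 0.0854) or replicate 2 (0.061) and on TPM (limma adjusted p = 0.166), and a correction for GC content lowered the fold change to 0.23. PGAP3 and MIEN1 overlap ERBB2 on the opposite strand, and whether the counting used strand is not given in the sources used here.

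ERBB3 (ENSG00000065361, chr12:56076799-56103505, plus strand), the kinase-impaired receptor that binds NRG1, held 142, 76 and 96 expected counts in the wild-type samples and 26, 20 and 33 in the DKK1-SE-/- samples. On counts the groups were far apart, with a log2 fold change of -1.84 ± 0.27 (SE; edgeR adjusted p = 0.000415). On TPM they were not, since the levels were 3.02, 2.33 and 2.59 TPM in the wild-type samples and 1.44, 3.16 and 1.87 TPM in the DKK1-SE-/- samples. DKK1-SE-/- replicate 2 had the fewest ERBB3 counts and the highest ERBB3 TPM of the 6 samples, and limma on log2(TPM + 1) gave a log2 fold change of -0.24 (adjusted p = 0.438).

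The difference between the units lies in the transcript length by which counts were divided, a quantity computed after the values were seen. Dividing counts by TPM, on a scale set by 393 genes with 1 annotated transcript, gives an implied effective length for ERBB3 of 2924, 2780 and 2773 bases in the wild-type samples and of 1356, 398 and 1367 bases in the DKK1-SE-/- samples. The ratio of the group means was 0.368, and 5 of 13054 genes with a mean of at least 1 TPM (0.0383%), ERBB3 included, had a ratio as low, where the median ratio was 0.999. GENCODE lists 33 ERBB3 transcripts of 237 to 6264 bases. Fewer ERBB3 transcripts and a shift to shorter ones therefore cannot be told apart from these gene totals, which rest on 20 to 33 counts in each DKK1-SE-/- sample. Implied lengths of EGFR (ratio 0.977), ERBB2 (1.02), EREG (1.02), AREG (1.01) and HBEGF (0.995) overlapped between the groups, as did those of TGFA (0.703).

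**Figure D2:**
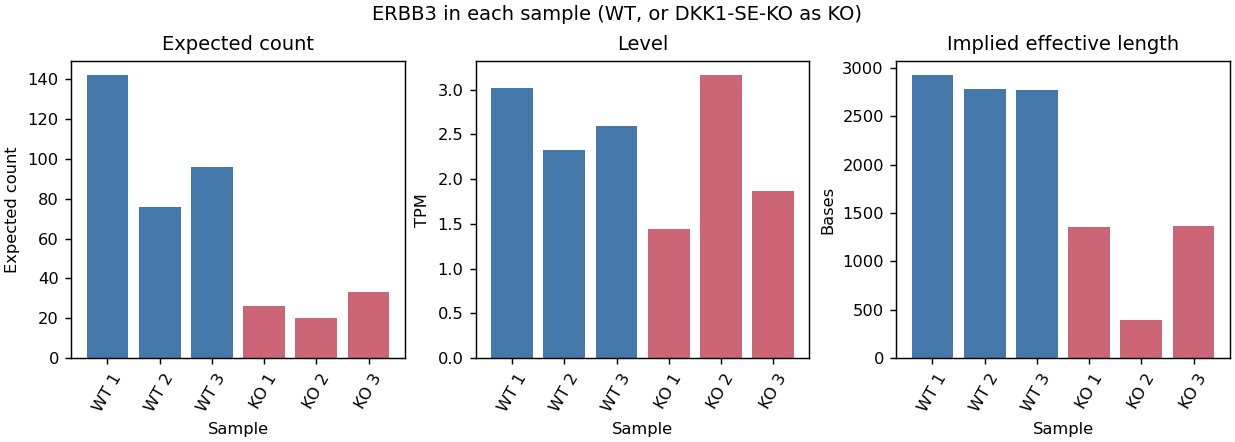
ERBB3 in each sample, given in expected counts, TPM and implied effective length in bases, with WT in blue and DKK1-SE-KO (KO) in red. Counts and implied length are lower in every KO sample, while the TPM of KO replicate 2, 3.16, is the highest of the 6.

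ERBB4 (ENSG00000178568), a neuregulin and HBEGF receptor, was not tested. Its counts were 3, 1 and 9 in the wild-type samples and 6, 8 and 18 in the DKK1-SE-/- samples, and a difference was not detectable at this depth. With no low-count filter its log2 fold change was 1.37 ± 0.70 (SE; edgeR adjusted p = 0.176). The 4 receptors together came to 120, 123 and 122 TPM in the wild-type samples and to 98.7, 104 and 134 TPM in the DKK1-SE-/- samples, groups that overlapped. The log2 ratio of means was -0.12, and -0.27 without DKK1-SE-/- replicate 3. EGFR made up 85.7% ± 1.8 (SD, n = 3) of the wild-type sum and 81.4% ± 3.52 (SD, n = 3) of the DKK1-SE-/- sum.

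Among the ligands, EREG (epiregulin, ENSG00000124882) was the most abundant EGFR-binding one, at 37.5, 41.3 and 40.1 TPM in the wild-type samples and at 60.5, 62.8 and 85.1 TPM in the DKK1-SE-/- samples. All DKK1-SE-/- samples lay above all wild-type samples, replicate 3 farthest. The log2 fold change was 0.97 ± 0.11 (SE; edgeR adjusted p = 7.82e-05), and 0.85 without DKK1-SE-/- replicate 3.

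AREG (amphiregulin, ENSG00000109321), a neighbour of EREG in the genome and like it shed from a membrane-bound precursor, stood at 23.1, 25.5 and 23.9 TPM in the wild-type samples and at 30.5, 31.0 and 36.2 TPM in the DKK1-SE-/- samples. The groups did not overlap. Its log2 fold change was 0.59 ± 0.12 (SE; edgeR adjusted p = 0.00244), and a correction for GC content raised it to 0.96.

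HBEGF (ENSG00000113070), the heparin-binding ligand, stood at 19.3, 19.8 and 20.8 TPM in the wild-type samples and at 36.0, 30.3 and 35.4 TPM in the DKK1-SE-/- samples. The wild-type samples lay close together and every DKK1-SE-/- sample was well above them. The log2 fold change was 0.91 ± 0.12 (SE; edgeR adjusted p = 0.000169).

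TGFA (ENSG00000163235), which encodes TGF-alpha, had the largest fold change of the 8 tested members from a very low level. Its counts were 11, 7 and 11 in the wild-type samples and 60, 85 and 52 in the DKK1-SE-/- samples, or 0.16, 0.14 and 0.29 TPM against 1.49, 2.26 and 1.54 TPM. No DKK1-SE-/- value came near the wild-type range, and the log2 fold change was 2.86 ± 0.31 (SE; edgeR adjusted p = 6.83e-05). Limma on log2(TPM + 0.1), a scale that understates changes of low genes, gave 2.66 (adjusted p = 0.000939), while on log2(TPM + 1) it gave 1.198 (adjusted p = 0.00091), just under the limit of the second rule. Even so, TGFA made up 1.13% ± 0.369 (SD, n = 3) of the summed ligand TPM in DKK1-SE-/- cells.

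BTC (betacellulin, ENSG00000174808) was not tested, with counts of 2, 2 and 1 in the wild-type samples and of 4, 7 and 13 in the DKK1-SE-/- samples. With no low-count filter its log2 fold change was 2.27 ± 0.93 (SE; edgeR adjusted p = 0.0664).

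The promoters of the 4 EGFR-binding ligands that rose together are shown so that their motif matches can be set side by side, and that of ERBB2 because it holds an AP-1 match. Which promoters and motifs to show was chosen after the values were seen. RefSeq (GRCh38.p14) gave a window of 250 bases before to 50 after the start for 8 of the 10 members. In each, 5 motifs were searched on both strands and are in capitals: the AP-1 motif TGANTCA (7.71% of all 35116 promoter windows hold it), the cAMP response element TGACGTCA (1.85%), its half-site TGACG, which the full element contains (24.6%), the TATA box TATAAA (11.5%) and the GC box GGGCGG (45%). A match describes these letters and does not show that a factor binds there.
EREG, chr4:74364895-74365194, plus strand: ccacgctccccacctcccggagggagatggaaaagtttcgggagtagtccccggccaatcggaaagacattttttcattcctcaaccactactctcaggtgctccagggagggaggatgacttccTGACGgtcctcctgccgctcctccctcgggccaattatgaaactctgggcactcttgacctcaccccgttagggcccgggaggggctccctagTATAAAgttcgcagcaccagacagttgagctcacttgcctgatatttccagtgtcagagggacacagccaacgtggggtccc
AREG, chr4:74444886-74445185, plus strand: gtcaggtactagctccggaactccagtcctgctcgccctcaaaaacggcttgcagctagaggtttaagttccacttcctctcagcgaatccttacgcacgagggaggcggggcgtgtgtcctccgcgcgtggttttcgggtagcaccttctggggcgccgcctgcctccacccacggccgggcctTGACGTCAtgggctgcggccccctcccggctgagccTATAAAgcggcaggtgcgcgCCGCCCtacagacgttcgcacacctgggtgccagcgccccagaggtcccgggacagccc
HBEGF, chr5:140346554-140346853, minus strand: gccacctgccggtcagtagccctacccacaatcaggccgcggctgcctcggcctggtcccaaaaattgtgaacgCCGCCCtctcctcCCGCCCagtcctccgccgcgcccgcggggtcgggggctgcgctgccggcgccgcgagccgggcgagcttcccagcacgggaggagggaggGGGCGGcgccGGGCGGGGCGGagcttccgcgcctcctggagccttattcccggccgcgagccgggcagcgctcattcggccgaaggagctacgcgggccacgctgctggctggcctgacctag
TGFA, chr2:70553777-70554076, minus strand: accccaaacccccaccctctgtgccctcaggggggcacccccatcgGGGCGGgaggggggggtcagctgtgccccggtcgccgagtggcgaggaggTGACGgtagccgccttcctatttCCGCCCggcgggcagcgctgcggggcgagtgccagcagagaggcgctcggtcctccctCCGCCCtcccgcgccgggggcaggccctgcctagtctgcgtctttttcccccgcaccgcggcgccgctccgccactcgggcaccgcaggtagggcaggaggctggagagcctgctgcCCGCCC
ERBB2, chr17:39687844-39688143, plus strand: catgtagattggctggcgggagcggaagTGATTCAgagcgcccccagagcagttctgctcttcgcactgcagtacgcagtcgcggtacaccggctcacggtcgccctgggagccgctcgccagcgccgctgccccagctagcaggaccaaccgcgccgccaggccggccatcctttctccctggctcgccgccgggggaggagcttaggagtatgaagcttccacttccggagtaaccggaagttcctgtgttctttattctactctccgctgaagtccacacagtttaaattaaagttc
EREG and AREG each hold a TATA box, 32 and 29 bases before the start, and AREG also holds a full cAMP response element beginning 65 bases before it. The windows shown of HBEGF and TGFA hold no TATA box but 5 and 4 GC boxes, while a second TGFA window, chr2:70553397-70553696, holds 0 matches to the 5 motifs. No AP-1 match lies in the 4 ligand windows shown. Among the 8 members searched, AP-1 matches were found for 2, ERBB2 and the second of 2 EGFR starts.

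EREG, AREG and BTC lie beside EPGN, a further EGFR ligand gene, in a stretch of 486 kb, chr4:74308470-74794523. Within 1 Mb of this stretch, 10 of 23 other protein-coding genes were tested. Of these, 5 were called higher and 3 lower, where 19.8% and 19.5% of all tested genes were. The 4 chemokine genes CXCL8, CXCL1, CXCL3 and CXCL2, which attract neutrophils and lie on the EPGN side, were all called higher, with log2 fold changes of 1.65 ± 0.18, 1.05 ± 0.13, 1.53 ± 0.44 and 1.25 ± 0.27 (SE). The CXCL3 call was lost without wild-type replicate 1 or 3 or DKK1-SE-/- replicate 1 or 2 (edgeR adjusted p from 0.0506 to 0.0842), and the CXCL2 call was lost by limma on TPM (adjusted p = 0.056). MTHFD2L, a mitochondrial folate enzyme gene between CXCL2 and EPGN, was not called (log2 fold change 0.10 ± 0.21, SE) but was called higher with the GC-content offset (0.59, edgeR adjusted p = 0.0427), and PARM1, on the far side of BTC, was called higher at 1.95 ± 0.30 (SE). Farther out, THAP6, G3BP2 and USO1 were called lower at -0.53, -0.38 and -0.55, and RCHY1, at -0.38, was not called, except with RLE size factors, with library size alone or without DKK1-SE-/- replicate 3 (edgeR adjusted p of 0.0472, 0.033 and 0.04). With the GC-content offset THAP6, G3BP2 and USO1 lay at -0.18, -0.08 and -0.02 and were not called (edgeR adjusted p of 0.324, 0.337 and 0.885). RCHY1 lay at 0.04 with that offset and was not called (edgeR adjusted p = 0.845). The calls of THAP6, G3BP2 and USO1 were each also lost on leaving out some single replicates. In a window of 10 Mb around EREG, added after the values within 1 Mb had been seen, 11 of 58 tested genes were called higher and 14 lower. These shares were 19% and 24.1%, against 19.8% and 19.5% over all tested genes. The median log2 fold change in this window was -0.15.

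NRG1 (neuregulin 1, ENSG00000157168, chr8:31639222-32855666, plus strand), the ligand of ERBB3 and ERBB4, was the most abundant ligand in wild-type cells at 62.5, 61.2 and 61.1 TPM and stood at 17.4, 19.7 and 26.5 TPM in the DKK1-SE-/- samples. The groups were far apart, and replicate 3 was the DKK1-SE-/- sample nearest to the wild-type level. The log2 fold change was -1.64 ± 0.10 (SE; edgeR adjusted p = 1.15e-06). Its implied effective length was lower as well, with means of 3690 bases in wild-type and 3156 bases in DKK1-SE-/- cells and no overlap, and GENCODE lists 35 NRG1 transcripts.

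The fall of NRG1 was shared with genes around it on the short arm of chromosome 8. Of the 8 tested protein-coding genes within 1 Mb, 7 were called lower and none higher, with a median log2 fold change of -1.24. In a window of 10 Mb, added after the values within 1 Mb had been seen, 75 of 99 tested genes were called lower and 5 higher, where 19.5% of all tested genes were called lower, and the median log2 fold change was -0.85. In DKK1-SE-/- replicates 1 to 3 the median log2 differences of these genes from the wild-type mean were -0.87, -0.89 and -0.77. NRG1 was lower than most of them, since 8 of the 99 had a lower log2 fold change. Whether the copy number of this region differs between the lines was not tested.

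TGFA stood against its surroundings. Within 10 Mb of TGFA on chromosome 2, 65 of 101 tested genes were called lower and 2 higher, with a median log2 fold change of -0.62, and TGFA itself was called higher. Around HBEGF 20 of 140 tested genes within 10 Mb were called higher and 32 lower, around ERBB2 63 of 242 higher and 36 lower, and around ERBB3 48 of 206 higher and 28 lower. Around EGFR 12 of 29 were called higher (41.4%) and 3 lower (10.3%), with a median log2 fold change of 0.35. Over all tested genes 19.8% were called higher and 19.5% lower, where the shares were 14.3% and 22.9% around HBEGF, 26% and 14.9% around ERBB2, and 23.3% and 13.6% around ERBB3.

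**Figure D3:**
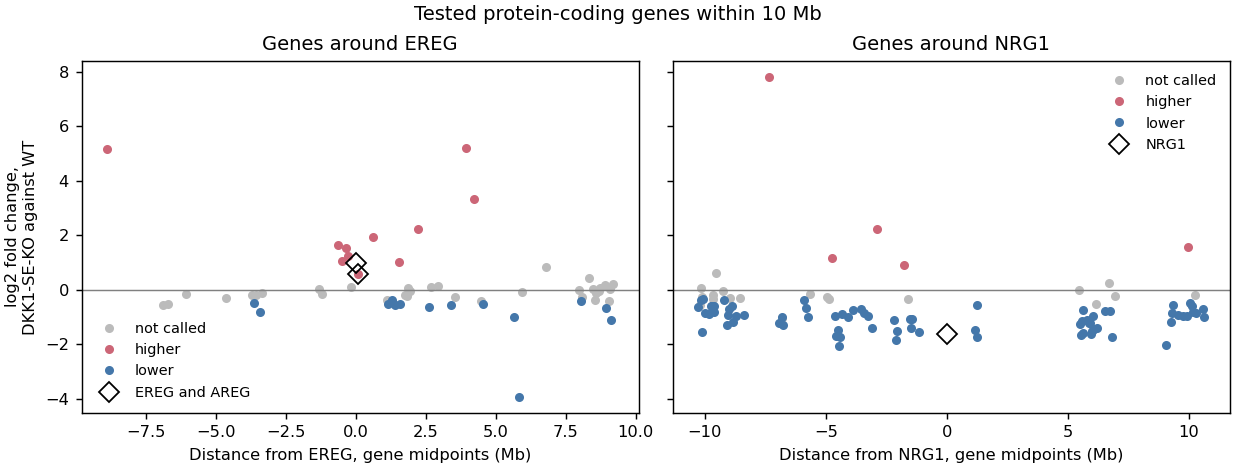
Log2 fold change of the tested protein-coding genes within 10 Mb of EREG and of NRG1, plotted by distance between gene midpoints, with called genes in colour and family members as open diamonds. Genes called higher lie both close to EREG and more than 1 Mb away, and genes called lower extend across the window around NRG1.

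Summed over the 6 ligands the level overlapped between the groups, at 143, 148 and 146 TPM in the wild-type samples and at 146, 146 and 185 TPM in the DKK1-SE-/- samples, a log2 ratio of means of 0.13 that was 0.0046 without DKK1-SE-/- replicate 3, but its makeup differed. NRG1 made up 42.3% ± 1.34 (SD, n = 3) of the sum in wild-type cells and 13.2% ± 1.23 in DKK1-SE-/- cells, and EREG 27.2% ± 0.823 and 43.4% ± 2.32. The 5 EGFR-binding ligands together, a sum formed after the values were seen, came to 80.1, 86.8 and 85.2 TPM in the wild-type samples and to 129, 127 and 159 TPM in the DKK1-SE-/- samples. They exceeded NRG1 by a ratio of 1.36 ± 0.0736 (SD, n = 3) in wild-type cells and of 6.61 ± 0.727 (SD, n = 3) in DKK1-SE-/- cells, with no overlap. These sums carry no test, since they are scores over genes chosen with results known.

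**Figure D4:**
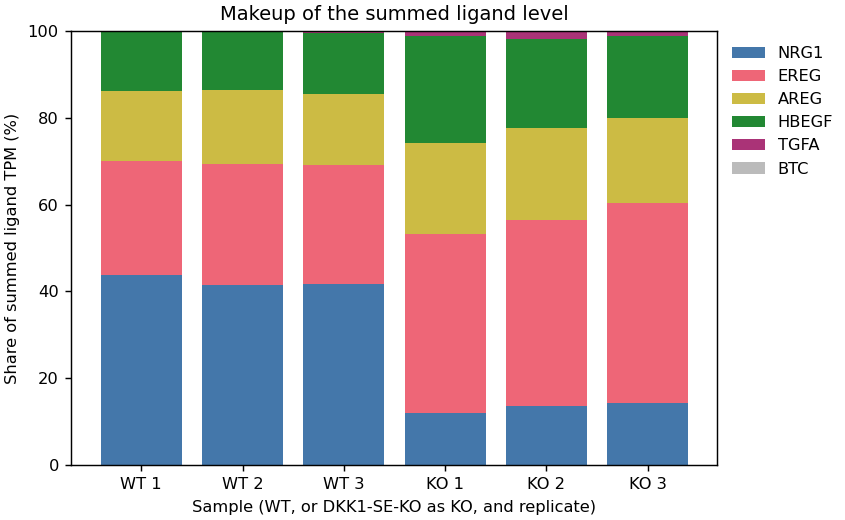
Share of each ligand in the summed ligand TPM of every sample, in percent, for WT and DKK1-SE-KO (KO) replicates 1 to 3. NRG1 makes up 41.4% to 43.8% in the WT samples and 11.9% to 14.3% in the KO samples.

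By level in TPM the order in wild-type cells was EGFR, NRG1, EREG, AREG, HBEGF, ERBB2, ERBB3, TGFA, ERBB4 and BTC, and neighbours in that order overlapped only among TGFA, ERBB4 and BTC. In DKK1-SE-/- cells it was EGFR, EREG, HBEGF, AREG, NRG1, ERBB2, ERBB3, TGFA, ERBB4 and BTC. There EGFR and EREG, HBEGF and AREG, NRG1 and ERBB2, ERBB3 and TGFA, and ERBB4 and BTC could not be ordered beyond their spread. NRG1 moved from the second place to the fifth.

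**Figure D5:**
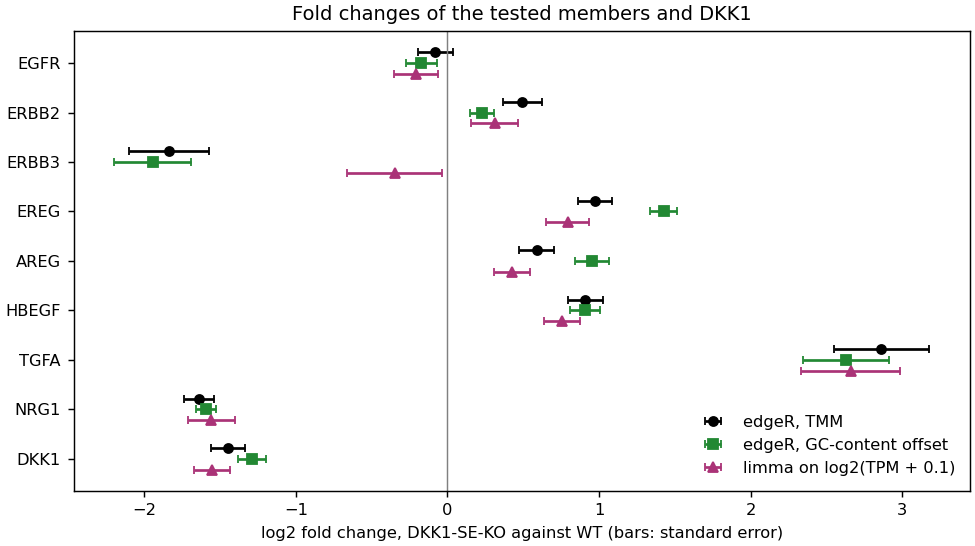
Log2 fold change of the 8 tested members and DKK1, DKK1-SE-KO against WT, with bars for the standard error, from edgeR with TMM normalization, from edgeR with a GC-content offset and from limma on log2(TPM + 0.1). The estimates lie on the same side of 0 for each gene, and ERBB3 is the member whose TPM estimate, -0.35, lies far from its count estimate, -1.84.

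Of the other ErbB ligands, EGF, EPGN, NRG2, NRG3 and NRG4, NRG2 alone was tested. NRG2, a neuregulin that binds ERBB3 and ERBB4, stood at 1.51, 1.58 and 2.73 TPM in the wild-type samples and at 4.43, 3.58 and 5.64 TPM in the DKK1-SE-/- samples, without overlap (log2 fold change 1.01 ± 0.18, SE; edgeR adjusted p = 0.00153). Its level stayed well under that of NRG1 in every sample. EGF, EPGN, NRG3 and NRG4 were at 0.55 TPM or less in all 6 samples.

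Membrane-bound ligand precursors are released by ADAM proteases, and iRhom proteins support the maturation of ADAM17 among them. Over all tested genes 39.3% were called, 19.8% as higher and 19.5% as lower, which is the background for the counts of each gene list. Of 10 genes listed for ligand release 9 were tested, 2 called higher and 4 lower, with a median log2 fold change of -0.46. ADAM9, the most abundant of them, stood at 137, 142 and 133 TPM in the wild-type samples and at 24.6, 37.5 and 51.6 TPM in the DKK1-SE-/- samples (log2 fold change -1.73 ± 0.18, SE; edgeR adjusted p = 5.87e-05). ADAM9 lies on the same chromosome arm as NRG1, and 45 of 60 tested genes within 10 Mb of it were called lower. ADAM10, which sheds EGF and BTC, was called lower at -0.76 ± 0.18 and ADAM19 at -0.70 ± 0.11, while RHBDF1, which encodes iRhom1, was called higher at 0.92 ± 0.13 (SE), or 0.60 with the GC-content offset.

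Downstream of the receptors, 3 of 14 adaptor genes were called higher and 8 lower (median log2 fold change -0.41), where 19.8% and 19.5% of all tested genes were. SHC1, the most abundant adaptor, was higher at 0.51 ± 0.11 and PLCG1, which encodes phospholipase C gamma 1, at 0.67 ± 0.11, while SHC3 at -3.84 ± 0.46, GAB2 at -1.11 ± 0.13 and the RAS exchange factor SOS1 at -0.92 ± 0.15 (SE) were lower. Of the 10 RAS-RAF-MEK-ERK genes 3 were called higher (HRAS, ARAF and MAP2K1, at 0.45, 0.39 and 0.33). Each of these 3 calls was lost by limma on TPM and on leaving out some single replicates, and that of HRAS also with the GC-content offset (0.09, edgeR adjusted p = 0.395). MAP2K2, the most abundant, was not called, except without DKK1-SE-/- replicate 3 (edgeR adjusted p = 0.0263). Of the 10 PI3K-AKT genes 1 was called higher and 4 lower (median -0.37), among them PIK3R1 at -0.71 ± 0.16 and PIK3CA at -0.74 ± 0.17, with PIK3CD higher at 0.60 ± 0.11 (SE), and AKT2, the most abundant, was not called. The calls of PLCG1, PIK3R1 and PIK3CA were lost by limma on TPM (adjusted p of 0.138, 0.312 and 0.136). The GC-content offset also removed the PIK3R1 call (-0.31, edgeR adjusted p = 0.0684), and the offset with the replicate block the PIK3CA call (-0.26, edgeR adjusted p = 0.0855). With the offset alone SHC1 lay at 0.29, SOS1 at -0.45, ARAF at 0.20 and PIK3CD at 0.34, nearer to 0 than without it and still called.

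Genes that restrain or degrade the receptors were split, with 5 of 15 tested called higher and 6 lower (median log2 fold change 0.11). TNK2, a kinase linked to EGFR degradation, was higher at 1.51 ± 0.16 and the ubiquitin ligase gene CBLB at 1.35 ± 0.16, while the phosphatase gene PTPRJ at -0.86 ± 0.11 and SOCS5 at -0.75 ± 0.13 (SE) were lower. ERRFI1, the feedback inhibitor of EGFR and the most abundant of the list, stood at 289, 306 and 293 TPM in the wild-type samples and at 266, 268 and 329 TPM in the DKK1-SE-/- samples and was not called.

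Among genes that ERK signalling is known to induce, 7 of 15 were called higher and 4 lower (median log2 fold change 0.32). DUSP6, a phosphatase of ERK, stood at 7.93, 7.93 and 7.37 TPM in the wild-type samples and at 13.2, 11.7 and 15.1 TPM in the DKK1-SE-/- samples (log2 fold change 0.96 ± 0.12, SE; edgeR adjusted p = 0.000181). The groups did not overlap. ETV4 at 1.02 ± 0.15, DUSP5 at 0.75 ± 0.11 and EGR1 at 0.92 ± 0.15 (SE) were higher too, and FOSL1, the most abundant, was not called, except without DKK1-SE-/- replicate 3 (edgeR adjusted p = 0.0485). Of the 7 AP-1 subunit genes only FOSB was called, higher at 1.86 ± 0.24 (SE).

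Cell type markers were read in the same samples. The 8 ductal markers summed to 1910, 1964 and 2007 TPM in the wild-type samples and to 3217, 3159 and 2728 TPM in the DKK1-SE-/- samples, KRT8 being the most abundant, and 4 were called higher (KRT8, KRT18, KRT19 and MUC1) and 2 lower (SOX9 and EPCAM). The SOX9 call was lost without wild-type replicate 2 or 3 or DKK1-SE-/- replicate 2, and the EPCAM call on leaving out any replicate but DKK1-SE-/- replicate 3, by DESeq2 (adjusted p = 0.0913) and by limma (adjusted p = 0.0808). KRT18 lay at 0.67, or 0.44 with the GC-content offset. KRT7 was not called, except without DKK1-SE-/- replicate 3 (edgeR adjusted p = 0.0134). The 4 mesenchymal markers summed to 3776, 4241 and 4553 TPM against 2824, 2541 and 2710 TPM, VIM being the most abundant, with VIM, ZEB1 and CDH2 called lower and FN1 higher on counts. On TPM the FN1 groups overlapped and limma did not call it (log2 fold change 0.34, adjusted p = 0.353). Whether these differences bear on the ligand levels was not tested. Fibroblast, acinar and endocrine markers summed to at most 1.85, 0.2 and 0.33 TPM a sample, FAP, AMY2A, PTF1A and INS were at a count of 0 throughout, and PTPRC and CD3E were at 0.06 TPM or less. Of the remaining markers KDR was called lower, from 2.35 to 0.42 TPM on average, and CD68, which epithelial cells also express in lysosomes, was called higher, from 43.5 to 66.6 TPM.

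The 3 samples of each group are labelled biological replicates, and the study describes 1 homozygous edited line. The p-values therefore measure the spread between these samples and not between independently edited lines. Rescue of e1, other edited lines and gene copy number were not analysed here. RNA levels of receptors and ligands do not give protein at the cell surface, ligand release or receptor phosphorylation. ERBB4 and BTC did not pass the low-count filter and were not called without it, the ERBB2 call depended on single samples, and ERBB3 differed in counts but not detectably in TPM. Reads of EGFR and ERBB2 and of their antisense neighbours cannot be told apart if strand was not used in counting.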

How the data were processed

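RNA of 3 DKK1-SE-/- and 3 wild-type PANC-1 samples was sequenced from stranded mRNA libraries. The authors deposited, for every gene in each sample, an unnormalized expected count, of which 32.3% of the nonzero values are not whole, and a TPM normalized within each library. The build is given as hg38 in the submitters' processing notes; aligner, counting program and annotation are not given in the sources used here. The deposited columns of the authors' own comparison hold fold changes, log2 fold changes, p-values and adjusted p-values and were not used, nor were their group means and annotation terms.

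After rounding to integers, the expected counts were fitted in R 4.3.3 with edgeR 4.0.16 (filterByExpr with a minimum count of 10, TMM, glmQLFit and glmQLFTest). Adjustment followed Benjamini and Hochberg over all 15179 genes tested. The members' rows were read out of that fit. The standard error is the absolute log2 fold change divided by the square root of F. The steps were tested on simulated data. Alternatives were DESeq2 1.42.0, limma 3.58.1 on log2(TPM + 1) and log2(TPM + 0.1), other scalings and filters, a GC-content offset with 40 bins, a replicate block, and leaving out each sample. Promoter windows came from RefSeq and were read with Python 3.11.15. GENCODE 44 placed 62625 of 62703 identifiers (99.9%).

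Named were all members, DKK1, the other ErbB ligands, of each other list the called genes with the 4 smallest p-values and its most abundant gene, the markers, and tested genes within 1 Mb of the cluster that holds AREG, EREG and BTC; not every gene that this rule picks is printed. The members and lists were chosen with earlier results of these data known. A permutation test planned for the summed levels is not given, because they are scores over such genes. P-values measure the spread between samples of 1 edited line and of wild-type cells.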

Additional observations from a re-analysis of the deposited data

How the results depend on the processing

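AREG, EREG, HBEGF, TGFA, NRG1 and DKK1 kept their direction and their call under every alternative run, except that TGFA was not tested under the filter of a mean TPM of at least 1. Of the 10 members 7 were called, but 8 without DKK1-SE-/- replicate 3. The number was 6 without wild-type replicate 1, without wild-type replicate 2, and with the GC offset and replicate block. It was 5 by limma on TPM and 4 with the filter of a mean TPM of at least 1, a count added after seeing the data, where TGFA is not tested. Leaving out each replicate, EGFR lay between -0.22 and -0.030 and ERBB2 between 0.37 and 0.57. ERBB2 was not called without wild-type replicate 1 or 2, by limma on log2(TPM + 1) with or without the TPM filter (0.29), by limma on log2(TPM + 0.1) (0.31), or with the GC offset and replicate block (0.23). ERBB3 was not called by limma (-0.24 with or without the TPM filter, and -0.35 with a pseudocount of 0.1), since TPM divides by a length that differed between the groups; other causes were not tested. Genes past the DEG limits numbered 1314, but 2490 with no filter, where more genes are tested, 512 by limma, and 7227 with 1.2 read as a linear fold change, also added after seeing the data. Limma on log2(TPM + 1) also moved the share of calls that were higher from 50.5% to 35.8% and the median of all tested genes from 0.03 to -0.08. Called genes numbered 7 to 13 of the adaptor list leaving out replicates and 7 by limma, against 11. For the RAS-RAF-MEK-ERK list they numbered 1 to 8 leaving out replicates, 2 with the replicate block, 1 by limma and 2 with the GC offset and replicate block, against 4. For the PI3K-AKT list limma called 2, against 5. For the AP-1 subunits 1 to 3 were called leaving out replicates, 4 with the GC offset and 3 with the GC offset and replicate block, against 1. The log2 ratio of summed receptor TPM was -0.12, between -0.27 and -0.035 leaving out replicates, -0.05 in TMM-scaled CPM, and 0.23 without EGFR. That of summed ligand TPM was 0.13, between 0.0046 (without DKK1-SE-/- replicate 3) and 0.19 leaving out replicates, 0.22 in TMM-scaled CPM, and -0.24 without EREG. Across the alternatives of the other 56 genes picked and tested, 68 values lost their call, 8 gained one and 708 kept their side of the threshold. Under the replicate block the number of genes called was 4981, against 5972. Same-numbered samples did not deviate together (correlations across genes of -0.12, -0.07 and -0.11), and not every sample correlated best with its own number. No pairing by number was seen, though 3 samples a group cannot exclude one. Within 10 Mb of NRG1, a window chosen after seeing the data, 75.8% of tested genes were called lower, against 87.5% within 1 Mb. Low counts limit ERBB4, BTC, TGFA and ERBB3 most.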
